A study of Homo sapiens with 6 samples.

Results

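The genes described here encode 10 receptor tyrosine kinases for growth factors: the platelet-derived growth factor (PDGF) receptors PDGFRA and PDGFRB, the hepatocyte growth factor (HGF) receptor MET, the epidermal growth factor (EGF) family receptors EGFR, ERBB2 and ERBB3, the fibroblast growth factor (FGF) receptors FGFR1, FGFR2 and FGFR3, and the vascular endothelial growth factor (VEGF) receptor KDR. They were taken by symbol, matched to the Entrez gene numbers of the deposited table, and all 10 were found among its 25702 genes. No measured value entered that choice. RNA was sequenced from RMS13, a cultured line of human rhabdomyosarcoma, in 3 libraries from cells given an siRNA against GLI1 (siGLI1) and 3 from cells given a non-targeting siRNA (siNT2). Both groups were cultured in RPMI with 10% serum, with 72 h of siRNA treatment stated for the GLI1 knockdown. All 6 libraries are of this 1 line, and nothing in the labels says whether the replicates were separate cultures, so the spread behind each p-value may be technical.

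A receptor tyrosine kinase spans the cell membrane, binds a growth factor outside the cell and pairs with a second receptor, after which the kinase parts phosphorylate each other. Adaptor proteins such as GRB2 then dock on the phosphorylated tails and pass the signal to RAS and the ERK kinases, and to AKT. ERBB3 has little kinase activity of its own and signals mainly with ERBB2, while ERBB2 has no known ligand of its own. In developing muscle, MET guides migrating precursors and FGF receptors favour proliferation of myoblasts over differentiation. GLI1 is a transcription factor of the Hedgehog pathway.

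Of the 10 receptor genes, only FGFR1 passed the test between the groups, and it was lower after the knockdown. Its normalised read count, the reads of a gene divided by 1 size factor per library, read 1645, 1910 and 1705 in siNT2 and 721, 673 and 863 in siGLI1. Every siGLI1 library was thus below every siNT2 library, and the mean went from 1753 ± 139 in siNT2 to 752 ± 99.0 in siGLI1 (SD, n = 3 per group), which is 42.9% of the siNT2 level. In RNA from a whole culture, fewer cells with FGFR1 and less FGFR1 RNA per cell cannot be told apart. FGFR1 fell by 1.22 on the log2(value + 1) scale (standard error 0.15, 95% interval -1.56 to -0.89, adjusted p = 0.00244). Unless another tool is named, adjusted p-values come from limma, by the Benjamini-Hochberg method over 15622 genes, and a gene is called when its adjusted p is under 0.05.

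The other 8 receptor genes that entered the test were not called, and their groups overlapped. KDR did not enter it, since its mean was below the minimum of 10 normalised reads. So 9 of the 10 were tested, with 1 called lower and 0 higher, where 8% of all tested genes were called lower and 7.21% higher, and a share of 1 in 9 is no result about the receptors as a set. With an unadjusted p under 0.05 there was again FGFR1 alone. FGFR1 was also the one receptor gene called by edgeR and by DESeq2, which called 15.2% and 21% of all genes. With library weights, whose estimate did not converge, 4 receptor genes were called higher and 4 lower, where 80.8% of all genes were called. The groups failed to overlap in 1 of the 9, against 36.2% of all tested genes. The median log2 fold change of the 9 was -0.25 and that of all tested genes -0.01.

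**Figure D1:**
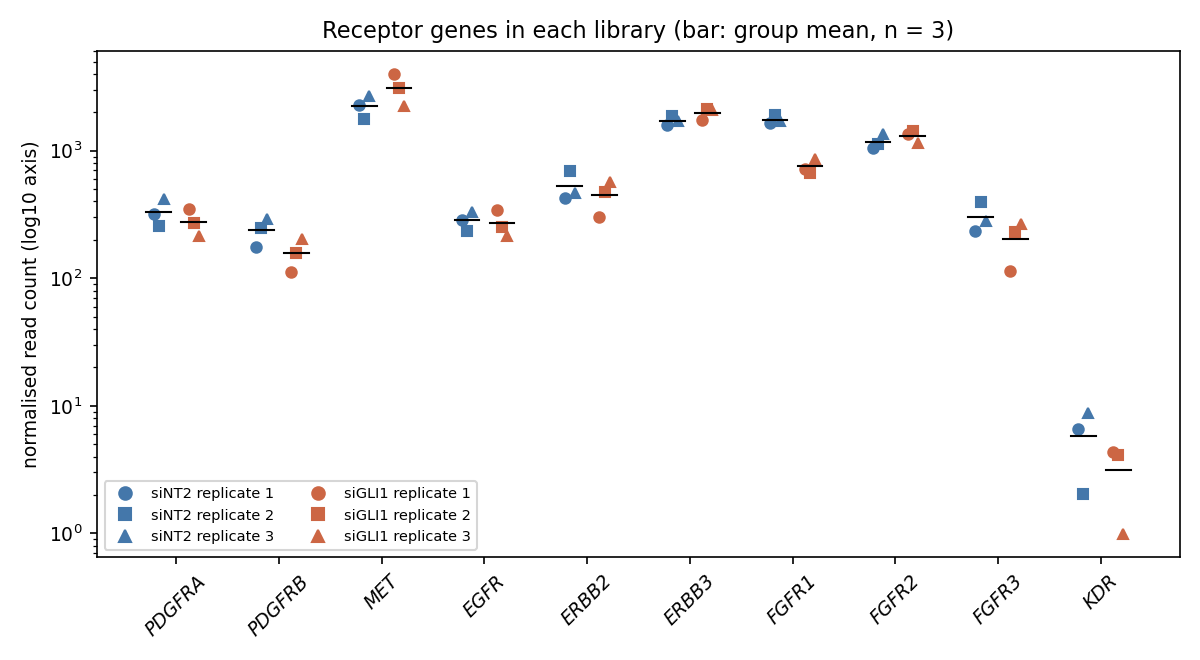
Normalised read count (log10 axis) of the 10 receptor genes in each of the 6 libraries, with siNT2 in blue, siGLI1 in orange, the replicate shown by the marker shape and the group mean by a black bar. FGFR1 is the gene whose groups do not overlap (673 to 863 against 1645 to 1910), and KDR lies near the floor of 3 reads in every library.

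The libraries fit their labels at the target and at muscle genes. GLI1 was 11963 to 17837 in siNT2 and 580 to 1274 in siGLI1 libraries, which held 13673977 to 18947614 recovered reads each. Of 8 rhabdomyosarcoma and myoblast markers, MYOD1 was at 14204 or more and MYOG at 9229 or more in all libraries and MYF5 was at or near 0. DES, CHRNA1, MYMK and NCAM1 rose, and their part in the results below was not tested. Summed over 8 markers each, epithelial markers held 110 to 127 in siNT2 and 82.0 to 96.1 in siGLI1, and blood cell markers 51.8 to 92.3 and 61.6 to 117, with HBB at 0 throughout. The 8 endothelial markers summed to 137 to 158 and 219 to 259, with CDH5 at 9.72 or less in every library. Among them PECAM1, an adhesion molecule of endothelial and blood cells, rose by 2.96 on the log2 scale (adjusted p = 0.00226, limma), from 10.99 ± 4.71 to 86.3 ± 4.54 normalised reads (SD, n = 3 per group), and its part in the results below was not tested. TEK and CLDN5 were not called.

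Libraries within a group stood apart along GC content, and this touches most receptor genes. Over 14438 tested genes, the rank correlation between a gene's GC content and its deviation from the group mean was 0.70 in siNT2 replicate 2 and 0.74 in siGLI1 replicate 3, against -0.31 to -0.69 in the other 4 libraries. The log2 fold change between the groups also ran along GC content, with a rank correlation of -0.29 over the same genes. The receptor transcripts ran from 42.9% GC in PDGFRA to 62.1% in FGFR3. PDGFRA, MET and EGFR, at 42.9% to 47.5%, were each lowest in siNT2 replicate 2 and siGLI1 replicate 3 among the libraries of their group. PDGFRB, ERBB2 and FGFR3, at 57.6% to 62.1%, were each highest in siGLI1 replicate 3 and lowest in siGLI1 replicate 1. Among the siNT2 libraries ERBB2 and FGFR3 were highest in replicate 2. PDGFRB departed from this, at 0.32 above the siNT2 mean in replicate 3 and 0.08 in replicate 2 (log2 scale). FGFR3 shows the widest case, since siGLI1 replicate 1 lay 0.75 below and replicate 3 lay 0.49 above the group mean on the log2 scale.

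**Figure D2:**
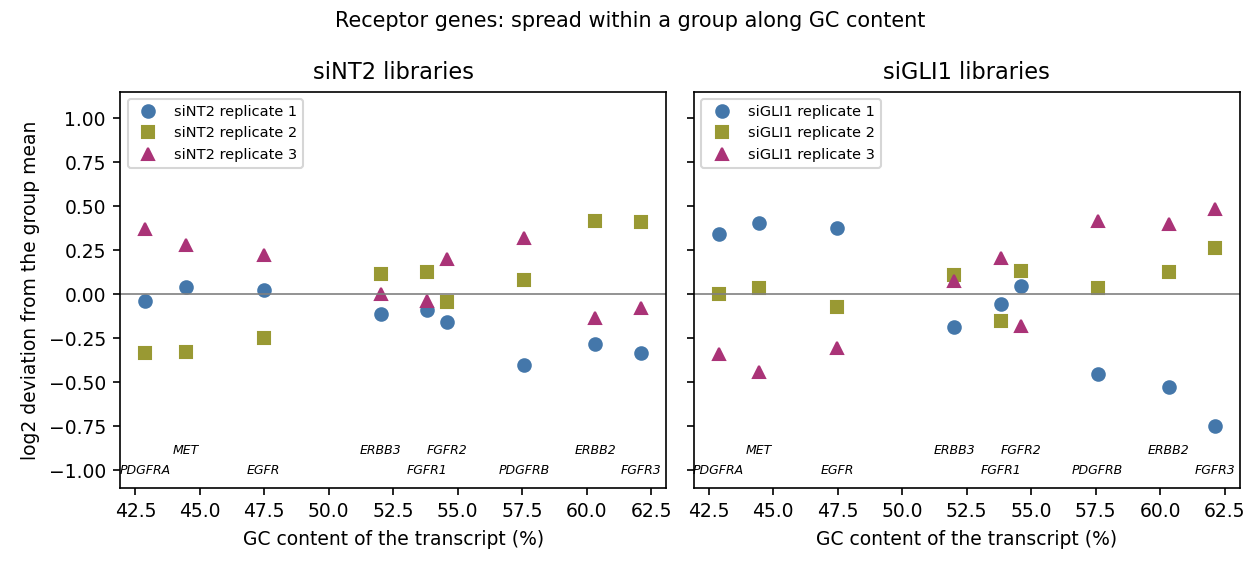
Deviation of 9 receptor genes from their group mean (log2 scale) in each library, against the GC content of the transcript in percent, with siNT2 on the left and siGLI1 on the right. Replicate 3 of siGLI1 changes from below 0 in PDGFRA, MET and EGFR to above 0 in PDGFRB, ERBB2 and FGFR3, while FGFR1 at 53.8% GC stays within 0.21 of 0 in all 6 libraries.

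Removing a smooth GC trend from each library lowered the within-group SD (log2 scale) of 8 of the 9 receptor genes. It went from 0.35 to 0.18 in PDGFRA, from 0.43 to 0.20 in ERBB2 and from 0.54 to 0.29 in FGFR3, but from 0.17 to 0.25 in FGFR2. FGFR1 was then at -1.16 (adjusted p = 9.39e-05), and it was still the only receptor gene called, although 31.6% of all tested genes were. The nearest others were PDGFRA, at -0.37 (adjusted p = 0.0791), and MET, at 0.33 (adjusted p = 0.113). The 3 receptor genes of highest GC content moved toward 0: PDGFRB from -0.60 to -0.46, ERBB2 from -0.25 to -0.07 and FGFR3 from -0.63 to -0.41.

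**Figure D3:**
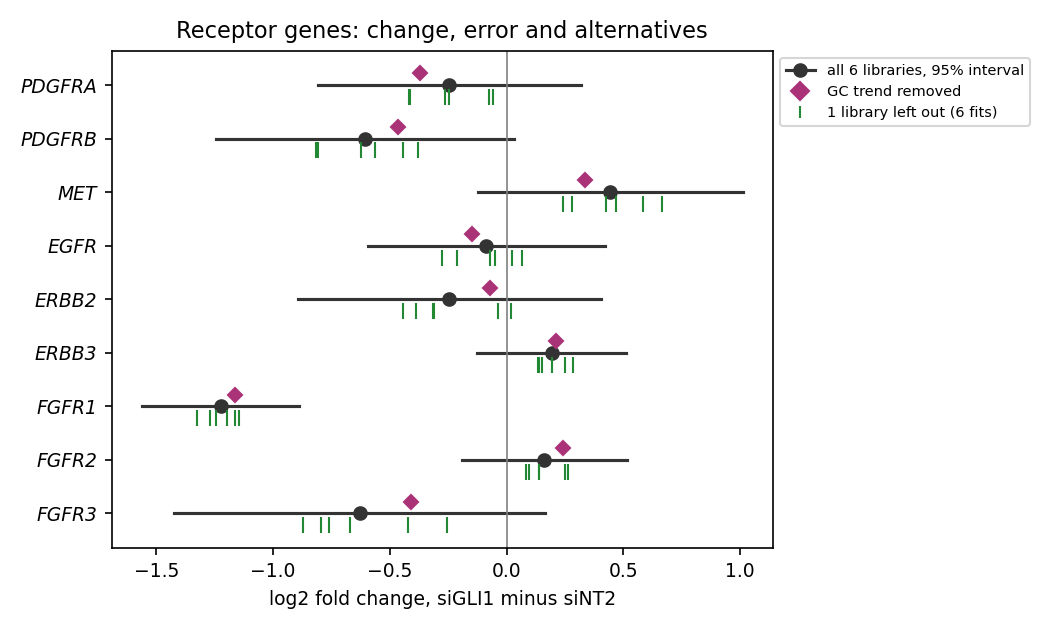
Log2 fold change of 9 receptor genes, siGLI1 minus siNT2, with its 95% interval (black), after removal of the GC trend (purple diamonds) and in the 6 fits that leave out 1 library (green ticks). FGFR1 lies between -1.33 and -1.15 in all 6 of these fits. The intervals drawn are from the fit without GC correction, and those of the other 8 genes include 0.

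Among the FGF receptors, FGFR2 and FGFR3 gave no call. FGFR2, whose splice forms bind different FGFs in epithelial and mesenchymal cells, read 1046, 1130 and 1340 in siNT2 and 1346, 1428 and 1153 in siGLI1. Replicates 1 and 2 of siGLI1 were above all siNT2 libraries, and replicate 3 was inside their range. Its log2 change was 0.16 (95% interval -0.19 to 0.51, adjusted p = 0.508). FGFR3 read 235, 393 and 280 in siNT2 and 113, 229 and 268 in siGLI1, which is -0.63 on the log2 scale (95% interval -1.42 to 0.16, adjusted p = 0.251). That interval is wide enough to hold both no change and a fall as large as that of FGFR1. Without siGLI1 replicate 1 the value was -0.26 (adjusted p = 0.57).

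Within single libraries the log2 ratio of FGFR1 to FGFR2, which no size factor touches, was 0.65, 0.76 and 0.35 in siNT2 and -0.90, -1.09 and -0.42 in siGLI1. FGFR1 had more reads than FGFR2 in all siNT2 libraries and fewer in all siGLI1 libraries, a difference of -1.39 between the group means. The exact two-sided permutation test gave p = 0.1, the smallest that 3 against 3 libraries allow, and 0.5 after adjustment over the 5 receptor pairs compared. For FGFR1 to FGFR3 the difference was -0.59 (exact permutation p = 0.3, adjusted 0.5). With 3 libraries a group, no such ratio could pass the threshold. Read counts also depend on transcript length, so they do not rank FGFR1 and FGFR2 by level. Per kb of the transcripts used, FGFR2 was above FGFR1 in each siNT2 library (342, 369 and 438 against 306, 355 and 317). That order depends on the transcript chosen.

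FGFR4, the remaining FGF receptor kinase and a gene known to be highly expressed in rhabdomyosarcoma, had the most reads of the receptor genes. It read 12618, 16898 and 11646 in siNT2 and 9371, 12755 and 16187 in siGLI1, and the groups overlapped widely. Its log2 change of -0.12 (95% interval -0.65 to 0.41, adjusted p = 0.753) became 0.14 with the GC correction. Per kb of transcript, FGFR4 made up 84.7% ± 2.50 of the summed level of the 4 FGF receptors in siNT2 and 86.4% ± 3.15 in siGLI1 (SD, n = 3 per group). FGFR1 made up 6.38% ± 0.637 and 3.05% ± 0.590 of it, and its share in every siGLI1 library was below that in every siNT2 library.

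**Figure D4:**
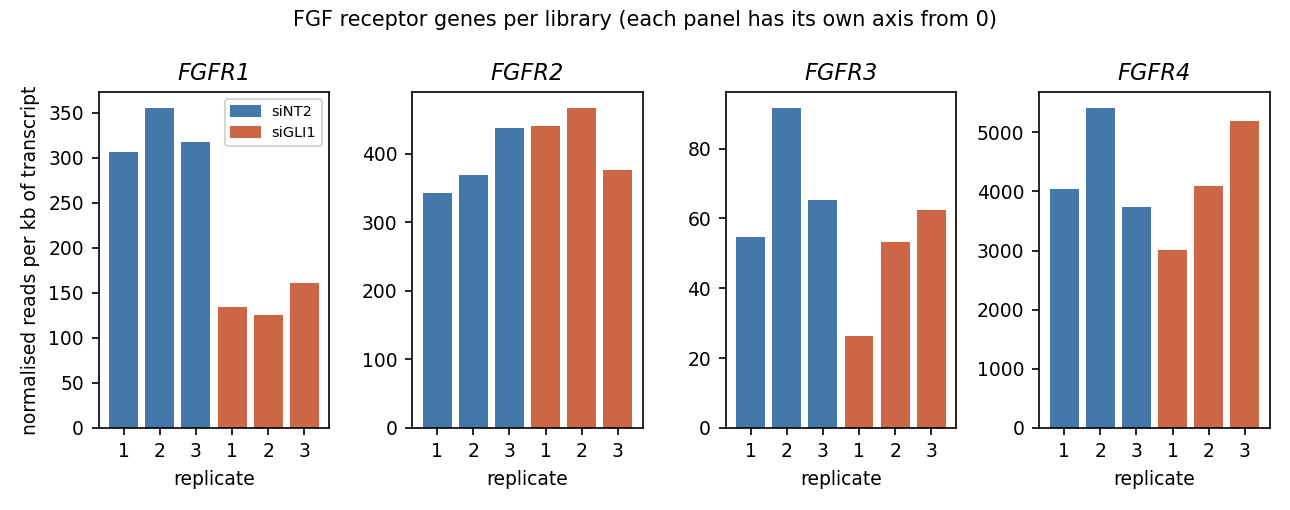
Normalised reads per kb of transcript for the 4 FGF receptor genes in each library, siNT2 in blue and siGLI1 in orange, with a separate axis from 0 for each gene. The 3 siGLI1 bars of FGFR1 (125 to 161) are all below its siNT2 bars (306 to 355), while FGFR4 is at 3002 or more in every library.

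MET had the most reads of the 10 receptor genes and was not called. It read 2293, 1774 and 2703 in siNT2 and 4010, 3106 and 2224 in siGLI1. Replicates 1 and 2 of siGLI1 were above all siNT2 libraries, and replicate 3 lay inside their range. The log2 change was 0.44 (95% interval -0.12 to 1.01, adjusted p = 0.256), and without siGLI1 replicate 3 it was 0.67 (adjusted p = 0.0598). Without siGLI1 replicate 1 it was 0.24 (adjusted p = 0.565), and without siNT2 replicate 2 it was 0.28 (adjusted p = 0.521).

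None of the 3 EGF family receptors was called, and the groups overlapped in each. ERBB3 read 1588, 1859 and 1721 in siNT2 and 1727, 2117 and 2073 in siGLI1, with a log2 change of 0.19 (95% interval -0.13 to 0.51, adjusted p = 0.379). ERBB2 read 424, 690 and 469 against 301, 475 and 573, with a log2 change of -0.25 (95% interval -0.89 to 0.40, adjusted p = 0.586). EGFR read 287, 236 and 329 against 345, 251 and 214, with a log2 change of -0.09 (95% interval -0.59 to 0.42, adjusted p = 0.817). Signs of the last 2 were not stable, since ERBB2 was at 0.02 without siGLI1 replicate 1, and EGFR at 0.07 without siGLI1 replicate 3 and at 0.03 without siNT2 replicate 3. ERBB3 had more reads than ERBB2 in every library. The log2 ratio of ERBB2 to ERBB3 was -1.74 ± 0.27 in siNT2 and -2.18 ± 0.33 in siGLI1 (SD, n = 3 per group; exact permutation p = 0.3, adjusted 0.5). ERBB2 overlaps MIEN1 and EGFR overlaps EGFR-AS1 in the annotation, so some of their reads may be shared if strand was not used. FGFR1 overlaps the long noncoding RNA gene LOC102723716 and the pseudogene RPS20P22, and MET overlaps the long noncoding RNA gene COMETT and the pseudogene LOC124901824, none of which has a row in the table.

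The PDGF receptors, which mark mesenchymal cells, were among the less abundant of the 10. PDGFRA read 316, 257 and 419 in siNT2 and 347, 273 and 215 in siGLI1, with a log2 change of -0.25 (95% interval -0.81 to 0.32, adjusted p = 0.527). PDGFRB read 176, 246 and 291 against 111, 156 and 204, with a log2 change of -0.60 (95% interval -1.24 to 0.03, adjusted p = 0.177). The lowest PDGFRB value of each group was in replicate 1 and the highest in replicate 3, and siGLI1 replicate 3 was above siNT2 replicate 1. The log2 ratio of PDGFRA to PDGFRB differed by 0.36 between the group means (exact permutation p = 0.6, adjusted 0.75), and without siGLI1 replicate 1 the difference was -0.04. KDR, the main VEGF receptor of endothelial cells, had 6, 2 and 11 recovered reads in siNT2 and 4, 4 and 1 in siGLI1. With no minimum (22393 genes) limma gave it a log2 change of -0.69 (adjusted p = 0.487), which is no call.

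Levels of different receptors can be compared only per kb of transcript. In siNT2 cells the order of normalised reads per kb was MET (487 ± 101), FGFR2 (383 ± 49.4), FGFR1 (326 ± 25.8), ERBB3 (291 ± 22.9), ERBB2 (116 ± 31.3), FGFR3 (70.5 ± 19.0), PDGFRA (50.3 ± 12.5), PDGFRB (41.6 ± 10.2), EGFR (28.9 ± 4.70) and KDR (0.957 ± 0.568), each as mean ± SD with n = 3. Neighbours from MET to ERBB3 overlapped, as did those from FGFR3 to EGFR, whereas ERBB3 and ERBB2, ERBB2 and FGFR3, and EGFR and KDR did not. With the longest annotated transcript of each gene as the length, FGFR2 moved below ERBB3 and FGFR1 (268 against 291 and 282), so the order inside the upper 4 depends on the transcript chosen. In siGLI1 cells FGFR1 was at 140 ± 18.4 per kb (SD, n = 3), below every ERBB3 value (292 to 358) and next to ERBB2 (66.3 to 126).

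FGFR1 also carried a short sequence whose carriers were called lower more often than the genes without it. That sequence was chosen with earlier results of these data known, so the shares below are no independent test. The length of the 3' UTR was not taken into account. The 7-base word GCACCTC in a 3' UTR was found in 1044 of 12965 tested genes with an annotated 3' UTR, of which 18.4% were called lower and 6.42% higher. Of the 11921 genes without it, 7.17% were called lower and 8.27% higher. FGFR1 and EGFR were the 2 that had it among the 9 receptor genes searched, with 1 copy each, and EGFR was not called. FGFR2 was not searched, since the transcript used for it has no annotated 3' UTR. No source used here gives the siRNA sequences, and the part of the word in the fall of FGFR1 was not tested. GLI1 had no copy.

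Among the 91 tested genes of the receptors and their pathway, 10 carried the word: 4 were called lower (FGFR1, GAB2, NRAS and SPRY4), 0 higher, and 6 were not called. Of the 77 with an annotated 3' UTR and no copy, 5 were called lower. The sites are shown for 4 genes of the pathway, 1 not called and 3 called lower, so that the flanks can be compared, from GENCODE release 29 transcripts (GRCh38), 5′ to 3′ on the transcript strand, with the word in capitals. They start at base 3462 of the 3' UTR in EGFR, 219 in NRAS, 1101 in SPRY4 and 183 in GAB2, whose second copy starts at base 1881.
EGFR: tgggaactcaGCACCTCccctcaggca
NRAS: accagagaatGCACCTCttgttactcc
SPRY4: aagagaggcaGCACCTCccattggcag
GAB2: cctgatcaagGCACCTCctctgcccac

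The promoters were searched for the 9-base GLI binding word GACCACCCA on both strands, from 250 bases before to 50 after the start site. None of the 8 receptor genes with a RefSeq promoter (GRCh38.p14) had it, and 68 of all 27305 promoters (0.249%) did. That says only that these letters are absent from these windows.

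Ligand genes of the FGF family moved in both directions. Of 18 secreted FGF genes, 6 were tested, 2 rose, 1 fell and 3 were not called, with a median log2 fold change of -0.26. Of all tested genes 15.2% were called, and the groups did not overlap in 36.2%. FGF7, also called keratinocyte growth factor, which acts mainly through an epithelial splice form of FGFR2, read 163, 136 and 222 in siNT2 and 1081, 1066 and 605 in siGLI1. All siGLI1 libraries were above all siNT2 libraries, a rise of 2.38 (standard error 0.28, adjusted p = 0.00236) that was still called when any 1 library was left out. FGF18 rose by 1.86 (adjusted p = 0.0124), from 9.46 ± 3.68 to 35.8 ± 7.20 normalised reads (SD, n = 3 per group), and lost its call when siGLI1 replicate 2 was left out. Its siNT2 mean was below the minimum of 10, so it entered the test only through its higher siGLI1 values, which limits what its call can show.

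FGF22 fell by 1.52 (adjusted p = 0.032), from 32.5 ± 15.1 to 10.2 ± 2.64 normalised reads (SD, n = 3 per group). Leaving out replicate 1 or 2 of either group ended this call. The FGF ligand gene with the most reads was FGF8, at 1415, 1429 and 836 in siNT2 and 731, 721 and 934 in siGLI1. Its highest siGLI1 library exceeded its lowest siNT2 library (log2 fold change -0.59, adjusted p = 0.129). FGF1, FGF3, FGF4, FGF16 and FGF20 were at 0 reads in all 6 libraries.

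EGF family ligands were scarce. Of 11, 4 were tested, 2 fell and 0 rose, with a median of -0.69, where 8% of all tested genes were called lower. TGFA, a ligand of EGFR, read 134, 111 and 155 in siNT2 and 71.3, 56.2 and 49.4 in siGLI1, and fell by 1.17 (adjusted p = 0.0128). NRG1, a ligand of ERBB3, read 191, 168 and 250 against 116, 125 and 106, and fell by 0.80 (adjusted p = 0.0319). Both ligands had groups that did not overlap, as did 36.2% of all tested genes. Leaving out siNT2 replicate 1 or siGLI1 replicate 2 ended both calls, and for NRG1 so did leaving out siNT2 replicate 3 or siGLI1 replicate 1. HBEGF, another EGFR ligand, named here after its values were seen, read 107, 97.4 and 110 in siNT2 and 129, 145 and 180 in siGLI1. Its groups did not overlap either, and its log2 change of 0.51 was not called (adjusted p = 0.098), but with the GC correction it was called higher (adjusted p = 0.0372). AREG was at 0 in all libraries, while the receptors of these ligands, EGFR and ERBB3, were not called.

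Of the 10 PDGF, VEGF and HGF ligand genes, 7 were tested and 0 were called (median -0.02), where 15.2% of all tested genes were. With an adjusted p under 0.05, edgeR called 0 of them and DESeq2 called PDGFC, and with limma 2 had an unadjusted p under 0.05. PGF, a VEGF family ligand, had the most reads, at 3171, 3776 and 2784 in siNT2 and 2175, 1974 and 2694 in siGLI1. Its groups did not overlap (log2 fold change -0.51, adjusted p = 0.0861). HGF, the ligand of MET, had at most 1.59 normalised reads in any library, which is under the floor of 3 reads.

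The neuropilins, co-receptors that bind VEGFs and semaphorins, both fell. NRP1 read 351, 361 and 510 in siNT2 and 133, 131 and 159 in siGLI1, and fell by 1.51 (standard error 0.19, adjusted p = 0.0032). NRP2 read 1272, 1208 and 1415 against 676, 665 and 715, and fell by 0.92 (standard error 0.13, adjusted p = 0.0044). No siGLI1 library reached a siNT2 library in either gene, and both calls held when any 1 library was left out. Among the 5 co-receptor genes 4 were tested and 2 were called lower, where 8% of all tested genes were. FGFRL1, an FGF receptor that lacks a kinase, was at 0.14 on the log2 scale (adjusted p = 0.479). Of the 8 other receptors of the same families, including FGFR4, ERBB4 and FLT1, 4 were tested and 0 called by limma, by edgeR or by DESeq2, and with limma 0 had an unadjusted p under 0.05.

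**Figure D5:**
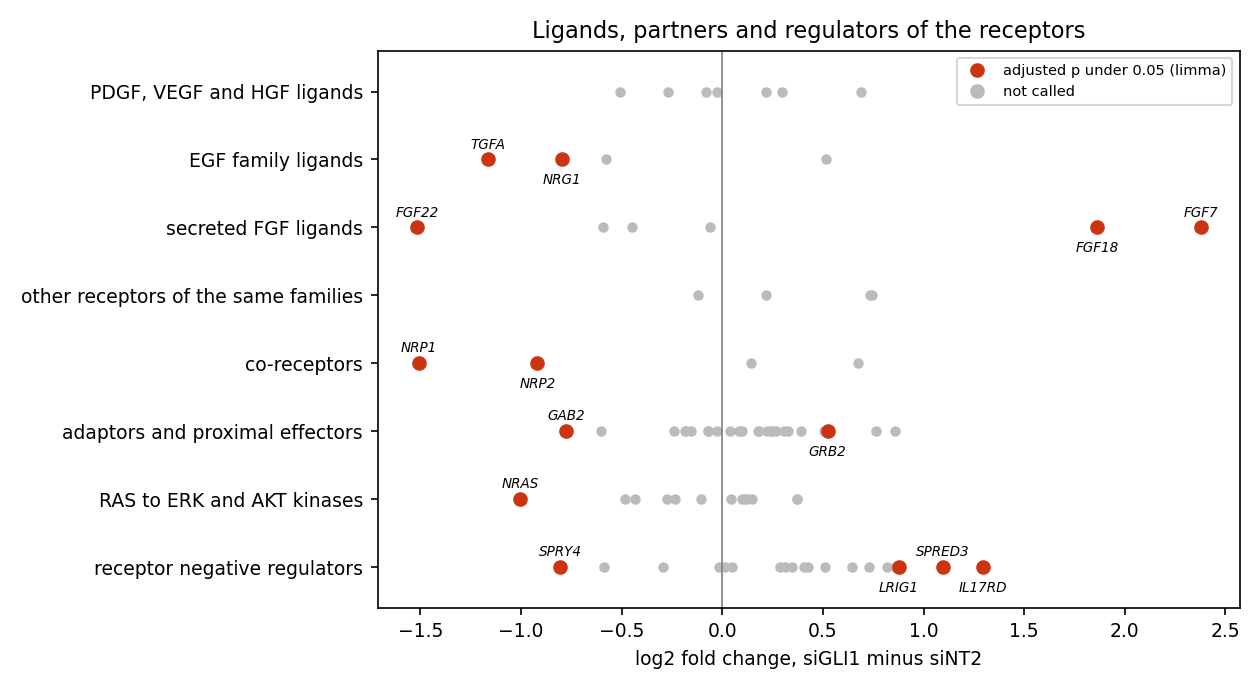
Log2 fold change, siGLI1 minus siNT2, of the tested genes in 8 lists of ligands, partners and regulators, 1 point a gene, with genes at an adjusted p under 0.05 in red and named. Called genes lie on both sides of 0 in the FGF ligands, the adaptors and the negative regulators, and below 0 in the EGF ligands and co-receptors.

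As among all tested genes, of which 15.2% were called, most adaptors and kinases below the receptors were not called. Of 29 adaptors and proximal effectors, 25 were tested, 1 rose and 1 fell (median 0.18). GRB2, the adaptor that links receptors to RAS activation, read 1305, 1367 and 1372 in siNT2 and 1872, 1893 and 2053 in siGLI1. Its rise of 0.52 (adjusted p = 0.0237) was steady in size, from 0.48 to 0.55 when single libraries were left out, but the call held only without siGLI1 replicate 3. GAB2, a docking protein with 2 copies of GCACCTC, read 399, 376 and 402 against 241, 226 and 219, and fell by 0.78 (adjusted p = 0.00997). Leaving out siNT2 replicate 1 or siGLI1 replicate 2 ended that call. PLCG1, the phospholipase that FGF and PDGF receptors activate, had the most reads of the list (log2 fold change -0.18, adjusted p = 0.518).

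Of 13 RAS, RAF, MEK, ERK and AKT genes, all tested, 1 fell and 0 rose (median 0.04). Of all tested genes 8% were called lower and 7.21% higher. NRAS read 1366, 1005 and 1580 in siNT2 and 798, 720 and 465 in siGLI1, with no overlap, and fell by 1.01 (adjusted p = 0.0346). It carries the word GCACCTC, and it was not called when siNT2 replicate 1, siNT2 replicate 3 or siGLI1 replicate 2 was left out. AKT1, with the most reads of these, was at 0.15 on the log2 scale (adjusted p = 0.583).

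Genes that restrain receptor signalling moved in both directions. Of 20 negative regulators, 19 were tested, 3 rose, 1 fell and 15 were not called, where 15.2% of all tested genes were called, with a median of 0.40 beside -0.01 over all genes. IL17RD, also called Sef, an inhibitor of FGF receptor signalling, read 1084, 857 and 1149 in siNT2 and 3014, 2549 and 2048 in siGLI1. Its lowest siGLI1 library was above its highest siNT2 library, a rise of 1.29 (standard error 0.19, adjusted p = 0.00495) that was still called when any 1 library was left out. LRIG1, which promotes loss of ERBB receptors, rose by 0.88 (adjusted p = 0.0153), from 528 ± 85.6 to 966 ± 110.1 normalised reads (SD, n = 3 per group), and was not called when siNT2 replicate 1 or siGLI1 replicate 2 was left out. SPRED3, an inhibitor of RAS to ERK signalling, rose by 1.09 (adjusted p = 0.0252) from 18.0 ± 1.43 to 40.2 ± 8.64 (SD, n = 3 per group), and was not called when any siNT2 library or siGLI1 replicate 2 was left out.

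SPRY4, a feedback inhibitor that ERK signalling induces, went the other way. It read 1140, 920 and 975 in siNT2 and 704, 539 and 505 in siGLI1, with no overlap, and fell by 0.80 (adjusted p = 0.0205). Leaving out siNT2 replicate 1, siNT2 replicate 3 or siGLI1 replicate 2 ended the call, and the gene carries the word GCACCTC. Other Sprouty genes, named here after their values were seen, did not fall. SPRY1 (log2 change 0.73) and SPRY2 (0.82) were higher without overlap but not called (adjusted p = 0.0674 and 0.0555). DESeq2 called both higher (adjusted p = 0.0216 and 0.0136), as did limma with the GC correction (0.0101 and 0.0111). SPRY3 was at 0.42 (adjusted p = 0.576), but its sign was not stable, since it was at -0.04 without siNT2 replicate 2. ERRFI1, which binds and inhibits EGFR and had the most reads of the list, read 3882, 2678 and 4726 against 8135, 7127 and 5066. Its groups did not overlap, and its log2 change of 0.86 missed the threshold (95% interval 0.28 to 1.44, adjusted p = 0.0576), while DESeq2 called it higher (adjusted p = 0.012). DUSP6, of the same list and also named after its values were seen, was lower like SPRY4. Its log2 change of -0.59 was not called and its groups overlapped (adjusted p = 0.203). With the GC correction limma called it lower, at -0.66 (adjusted p = 0.0401).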

How the data were processed

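The authors deposited signal values in 1 table, in which each gene's reads are divided by a size factor per library and not by gene length. The submitters' processing notes name Trim Galore 0.4.5, Bowtie2 2.3.3.1, featureCounts of Subread 1.6.4, DESeq2 2.11.40.6 and hg19; no source used here gives strand or annotation settings. In each column 100% of values were whole multiples of 1 read (tolerance 0.01 reads), so whole reads were recovered; 3 reads, the floor, are 2.39 to 3.29 deposited units and cover counting error only. No replicate pair agreed within sampling noise (chi-square per degree of freedom 9.68 or more).

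Symbols came from RefSeq GRCh38.p14 (23696 of 25702 IDs) and GC, length and 3' UTRs from GENCODE release 29, using the transcript with the longest coding sequence. Genes with a mean of 10 or more (15622) entered limma 3.58.1 (R 4.3.3; eBayes with trend, log2 of value plus 1, group only, two-sided). edgeR 4.0.16 and DESeq2 1.42.0 on recovered reads were alternatives; edgeR called 1182 higher and 1200 lower. Other alternatives were pseudocounts, filters, 2 scalings, a GC correction, a replicate block, library weights and leaving out each library. Scripts were tested on simulated data.

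The receptors, lists, the GCACCTC word and tests were chosen with earlier results of these data known. Named genes were the receptors, GLI1, up to 6 called genes per list with the largest change and each list's gene with the most reads. Others were chosen after their values were seen.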

Additional observations from a re-analysis of the deposited data

How the results depend on the processing

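FGFR1 was called lower as reported and in all alternatives run, with log2 fold changes from -1.33 to -1.15, and adjusted p-values of 0.00188 to 0.023 when 1 library was left out, 0.00265 with edgeR and 0.0212 with the replicate number as a block. The number of receptor genes called was 1 lower and 0 higher in each alternative except library weights, which gave 4 lower and 4 higher with ERBB2 at 0.147, FGFR4 at 0.00741 and PLCG1 at 0.0286. There 6209 genes were called higher and 6410 lower, but the weights did not converge (70.4 for siNT2 replicate 1, 0.14 for siNT2 replicate 2). Over all genes, 1127 were called higher and 1249 lower, against 2407 and 2525 with the GC correction, 462 and 508 with the replicate block, and 1873 and 1969 with both. Without 1 library these counts ranged from 283 to 1562 higher and from 358 to 1705 lower. FGFR4 was at 0.138 with the GC correction, with or without the replicate block. Among the values named in the text, some changed sign when 1 library was left out. EGFR ranged from -0.276 to 0.0654, ERBB2 from -0.445 to 0.0173, FGFR4 from -0.309 to 0.0856 and SPRY3 from -0.0398 to 0.75. The PDGFRA to PDGFRB ratio difference ranged from -0.0388 to 0.744 and that of EGFR to ERBB2 from -0.294 to 0.512. The cause was not tested.

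In the sample descriptions, same-numbered libraries of both groups share the first part of their code, so they may belong to matched experiments. Deviations of same-numbered libraries correlated at 0.49, -0.11 and -0.61 for numbers 1, 2 and 3. With the GC correction these correlations were 0.34, 0.02 and -0.40. Since the deviations follow GC content, they cannot show whether the samples were paired. The 14 called pathway genes were all called with the GC correction and by edgeR, and 4 of them, FGF7, NRP1, NRP2 and IL17RD, in all 6 fits without 1 library. With the replicate block 6 of the 14 were called, and with both the block and the GC correction 13. With the GC correction 17 further pathway genes were called, among them PDGFC, HBEGF, AKT1 and ERRFI1 as higher and DUSP6 as lower. KDR and 32 pathway genes were below the minimum of 10 and not in the test.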

Other observations

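Of the 32 pathway genes below the minimum for the test, only NRG2, FLT4, FGF23 and CBLC had groups that did not overlap. They are named after their values were seen. NRG2, which encodes a ligand of ERBB receptors, had 1 read in each siNT2 library and 13, 14 and 10 in the siGLI1 libraries. With no minimum (22393 genes) limma gave it an adjusted p of 0.00208. FLT4, a receptor for VEGFC and VEGFD, read 0, 3.04 and 0.80 in siNT2 and 6.48, 6.13 and 6.91 normalised reads in siGLI1 (adjusted p = 0.0427 with no minimum). FGF23, a hormone-like FGF, read 2.20, 1.01 and 3.99 against 5.40, 10.2 and 7.90 (adjusted p = 0.0673). CBLC had 0 reads in each siNT2 library and 1, 1 and 3 in the siGLI1 libraries (adjusted p = 0.0609 with no minimum). These levels are close to the floor of 3 reads, so no fold is given. Every siGLI1 library also detected more genes (20201 to 20292) than any siNT2 library (19355 to 19735). Outside the pathway, the markers SPI1, CD3E and ROBO4, with few reads, were likewise higher without overlap, while most other markers below the minimum overlapped. The share of such genes among all genes below the minimum was not counted, so no result about the pathway is drawn from them.

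The genes whose log2 values ran most like those of FGFR1 over the 6 libraries, among 12283 with a mean of 50 or more, were ATP2C2 (Pearson r = 0.999), GATAD2A (0.999) and EFCAB8 (0.998). The libraries of both groups enter these values, so any gene that fell to a like degree in all siGLI1 libraries scores high. The log2 fold changes were -2.30, -0.97 and -2.56.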
